A study of Mus musculus with 12 samples.

Results

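The nuclear genes for subunits of the respiratory chain and of ATP synthase were followed in mouse acute myeloid leukaemia before chemotherapy, shortly after it and at regrowth. They were taken by symbol: names that begin with Ndufa, Ndufb, Ndufc, Ndufs or Ndufv (complex I), Sdhb, Sdhc or Sdhd (complex II), Uqcr (complex III), the Cox series for complex IV, or Atp5 (complex V, the ATP synthase). Assembly factors named Ndufaf, pseudogene symbols and Rik symbols were left out. Of 24881 gene entries with a value in every library, 84 had such a symbol and 79 reached a mean of 1 FPKM (fragments scaled to transcript length and library depth) over the 12 libraries. By known membership 36 belonged to complex I, 3 to complex II, 8 to complex III, 14 to complex IV and 15 to complex V. The other 3 were Cox7a2l, a factor that joins complexes into supercomplexes, and Atp5s and Atp5sl, which are no subunits of the enzyme. Ndufa4 was counted with complex IV, where its protein sits despite its name.

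All mice carried leukaemia of the MLL-AF9 transgenic genotype, in which a fusion oncoprotein drives the disease, and in all of them GFP+ leukaemia cells were sorted by flow cytometry from bone marrow. In the 5 mice of the vehicle group no chemotherapy was given. The other two groups had received induction chemotherapy with doxorubicin, which poisons topoisomerase, and cytarabine, a nucleoside analogue: 3 mice were sampled 3 days after it ended (iCT) and 4 mice 10 days after it (relapse). Each library came from 1 mouse. The dose, the age and strain of the mice, whether the leukaemia came from 1 donor clone, and how cells were gated apart from GFP were not stated in the labels.

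Complex I passes electrons from NADH, and complex II from succinate, to ubiquinone. Complex III passes them on to cytochrome c and complex IV to oxygen. Complexes I, III and IV pump protons across the inner mitochondrial membrane, and complex V lets them back through a rotating c ring to make ATP. Nearly all subunits are encoded in the nucleus and a few core ones in mitochondrial DNA. Ubiquinone also takes electrons from dihydroorotate dehydrogenase, a step of pyrimidine synthesis, so the chain serves dividing leukaemia cells for nucleotides as well as for ATP.

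The sequences just upstream of 6 of these genes are shown because the results below turn on them: 5 passed the test in a comparison, and Ndufa5 had the most negative change of complex I in relapse. RefSeq start sites on GRCm38.p6 were found for 67 of the 79 genes. Each line gives the 120 bases before the start, 5′ to 3′ on the strand of the gene. A RefSeq start can differ from the end of the locus in the deposited tables, as it does for Ndufb3. Capitals mark matches, on either strand, to CCGGAAG (the core bound by the ETS family, GABP among them), GCGCA, any base, then GCGC (the NRF1 motif), AAGATGGC (bound by YY1) or CCAAT (bound by NF-Y).

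Ndufb3 (chr1:58586277-58586396, plus strand): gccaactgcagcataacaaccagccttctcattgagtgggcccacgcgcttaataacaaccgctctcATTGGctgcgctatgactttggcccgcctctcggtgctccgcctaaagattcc

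Ndufb8 (chr19:44555443-44555562, minus strand): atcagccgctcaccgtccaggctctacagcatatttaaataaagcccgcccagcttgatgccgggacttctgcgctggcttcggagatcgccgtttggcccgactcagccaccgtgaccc

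Atp5e (chr2:174464102-174464221, minus strand): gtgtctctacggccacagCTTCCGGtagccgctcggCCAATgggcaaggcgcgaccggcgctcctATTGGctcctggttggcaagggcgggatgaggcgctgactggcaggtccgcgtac

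Cox6b2 (chr7:4753095-4753214, minus strand): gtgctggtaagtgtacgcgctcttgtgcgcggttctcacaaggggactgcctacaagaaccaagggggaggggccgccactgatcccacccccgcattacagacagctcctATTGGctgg

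Cox7a1 (chr7:30184051-30184170, plus strand): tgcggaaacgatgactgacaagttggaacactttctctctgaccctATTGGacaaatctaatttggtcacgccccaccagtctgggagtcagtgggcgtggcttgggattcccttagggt

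Ndufa5 (chr6:24527691-24527810, minus strand): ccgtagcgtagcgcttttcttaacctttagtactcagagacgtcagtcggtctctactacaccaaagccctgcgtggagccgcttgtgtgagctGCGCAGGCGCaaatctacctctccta

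The line for Ndufb3 holds a reversed CCAAT 53 bases before the start, and that for Atp5e holds a reversed CCGGAAG at 102 and CCAAT at 84 and 55 bases, on opposite strands. Ndufa5 has the NRF1 motif 26 bases before its start. The lines for Cox6b2 and Cox7a1, tissue-restricted forms of their subunits, each hold 1 reversed CCAAT, and that for Ndufb8 none of the 4 motifs. Over the window from 250 bases before to 50 bases after the start, CCGGAAG was in 22.4% of the 67 promoters against 8.86% of all 32851 RefSeq windows of that length. The shares for the NRF1 motif were 22.4% and 4.60%, and for AAGATGGC 14.9% and 2.75%, whereas CCAAT was in 43.3% and 37.4%. A match says only that these letters are present; no binding was measured.

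These genes were among the more abundant transcripts of the leukaemia cells. In 66 of the 79 the mean over all libraries was above 100 FPKM, and together they made up 2.73% to 3.14% of the summed FPKM of a library. FPKM is scaled to transcript length, and levels are set side by side between genes on that basis. Member transcripts ran from 371 to 4715 bases and from 38.4% to 63.3% in GC content. Length and GC content were taken from the longest protein-coding GENCODE transcript of each member, which can differ from the form expressed in these cells. The part of length and base composition in these level differences was not tested. The median vehicle level was 204.2 FPKM over the 36 complex I genes, 127 FPKM for complex II, 386 FPKM for complex III, 472 FPKM for complex IV and 471 FPKM for complex V.

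Within complex I the 7 core subunits, which hold the flavin and the iron-sulphur centres, had a median vehicle level of 104 FPKM, below the 221 FPKM of the 29 accessory subunits. Ndufs1, the largest core subunit, was listed at 32.3 ± 3.37 FPKM in vehicle (SD, n = 5) and Ndufs8 at 179 ± 22.03 FPKM, the lowest and the highest of the 7. The means of Ndufs3, Ndufs7, Ndufv1, which binds NADH, and Ndufv2 lay between them, at 104, 129, 80.6 and 96.9 FPKM. Neighbours in this order such as Ndufs3 (97.8 to 109.9 FPKM) and Ndufv2 (88.9 to 106 FPKM) overlapped between mice. The accessory subunit Ndufa3 was the highest of the complex at 647 ± 121 FPKM.

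In the other complexes the vehicle means ran from 115 FPKM for Sdhb, the iron-sulphur subunit of complex II, to 179 FPKM for its membrane anchor Sdhd. In complex III they ran from 122 FPKM for the core protein Uqcrc2 and 123 FPKM for the Rieske iron-sulphur protein Uqcrfs1 to 503 FPKM for the small subunit Uqcrq, with Uqcr10 at 484 FPKM. Cox4i1, the common form of subunit 4, was the highest of complex IV at 1080 ± 117 FPKM. In complex V the epsilon subunit Atp5e stood highest at 1134 ± 86.1 FPKM, the catalytic beta subunit Atp5b had 857 ± 26.8 FPKM, and the stalk subunit Atp5f1 was lowest at 261 ± 19.00 FPKM (all SD, n = 5).

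The lowest members were Cox6a2, at a mean of 1.66 FPKM over the 12 libraries, and Atp5s, at 2.85 FPKM. Just outside the minimum was Cox4i2, at 0.194 FPKM. Cox7b2, Cox8b, Cox8c and Ndufa4l2 were listed at 0 in every library. All 79 members passed the filter for testing, an FPKM of 1 or more in at least 3 libraries, and Cox6a2 did so with 3 libraries, 2 of them iCT.

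Precision differed between libraries. The confidence intervals in the tables correspond to a median of 44.6 fragments per member in iCT mouse 1, against 164 to 1289 in the other libraries. Ndufs5, a small accessory subunit of complex I, had 94.5, 52.3, 37.3, 139.8 and 88.6 FPKM in the 5 vehicle mice, 0.288, 104 and 58.8 FPKM in the 3 iCT mice and 144, 119, 98.2 and 70.9 FPKM in the 4 relapse mice. The value in iCT mouse 1 stands far below all others, and the change of Ndufs5 in iCT, -1.91 (SE 1.07, limma adjusted p = 0.241), became 0.07 when that mouse was left out.

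At 3 days after chemotherapy the surviving GFP+ cells had, as a set, respiratory chain transcript levels near those of untreated cells, with large differences between the 3 mice. The question was which of these genes differed from vehicle beyond the spread between mice. Of 79 members, 3 passed limma's test on log2(FPKM + 1) with Benjamini-Hochberg adjustment over all 11019 genes tested: Ndufb8 rose, and Ndufb3 and Atp5e fell. Over all genes tested, 1060 passed (9.62%), 365 higher (3.31%) and 695 lower (6.31%). That split was 497 and 616 with median-of-ratios scaling, 526 and 570 with quantile normalization, and 657 and 627 with length and GC trends removed. The median log2 change of the members was -0.07 and that of all genes -0.08, and 49 of 79 members had a negative change, against 58.2% of all genes. On the log2(FPKM + 1) scale used throughout, the change of a gene of low level is understated.

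Ndufb8 (chr19:44550253-44555415, minus strand, GRCm38), an accessory subunit of the membrane arm of complex I, had 284, 315, 274, 299 and 297 FPKM in the 5 vehicle mice, 422, 378 and 362 FPKM in the 3 iCT mice and 261, 293, 321 and 268 FPKM in the 4 relapse mice. Every iCT value was above every vehicle and every relapse value. The change from vehicle was 0.39 (SE 0.09, limma adjusted p = 0.0207). The test was no longer passed without iCT mouse 1 (adjusted p = 0.0666, the highest of a range from 0.0169 with single libraries left out), with library weights (adjusted p = 0.116) or with limma fitted on vehicle and iCT alone (adjusted p = 0.0575). It was passed in 9 of 13 other settings of scaling, filter, pseudocount, weights or design. Ndufb8 overlaps the annotated gene Gm20538 on the same strand, and the tables do not say how shared fragments were assigned.

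Ndufb3 (chr1:58586598-58595948, plus strand), another accessory subunit of that arm, had 228, 221, 235, 212 and 241 FPKM in the 5 vehicle mice, 109, 211 and 125 FPKM in the 3 iCT mice and 184, 168, 175 and 184 FPKM in the 4 relapse mice. All 3 iCT values lay below all vehicle values, but iCT mouse 2 only just, while mice 1 and 3 were near each other and far lower. The change was -0.67 (SE 0.16, limma adjusted p = 0.0253). It missed the threshold without vehicle mouse 3, vehicle mouse 5, iCT mouse 1 or iCT mouse 3 (limma adjusted p over single libraries left out from 0.000188 to 0.0863). Of 13 other settings 10 kept the call, and it was lost in the fit of vehicle and iCT alone, among others. The change was -0.40 with length and GC trends removed. Among the 79, Ndufb8 was the only member with all iCT values above all vehicle values and Ndufb3 the only one with all below. For all genes tested these shares were 5.49% above and 10.6% below.

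Atp5e (chr2:174461074-174464101, minus strand), the small epsilon subunit of the F1 head of ATP synthase, had 1074, 1152, 1033, 1257 and 1154 FPKM in the 5 vehicle mice, 601, 1083 and 699.9 FPKM in the 3 iCT mice and 1037, 978, 1011 and 1073 FPKM in the 4 relapse mice. In iCT mice 1 and 3 it was lower than in all other libraries, and in mouse 2 it was within the vehicle range. The change was -0.56 (SE 0.15, limma adjusted p = 0.0379), and of the 12 fits that left out 1 library only that without iCT mouse 2 passed (limma adjusted p from 0.000751 to 0.142). Of 13 other settings 6 kept the call, and with length and GC trends removed the change was -0.35 (adjusted p = 0.0615).

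**Figure D1:**
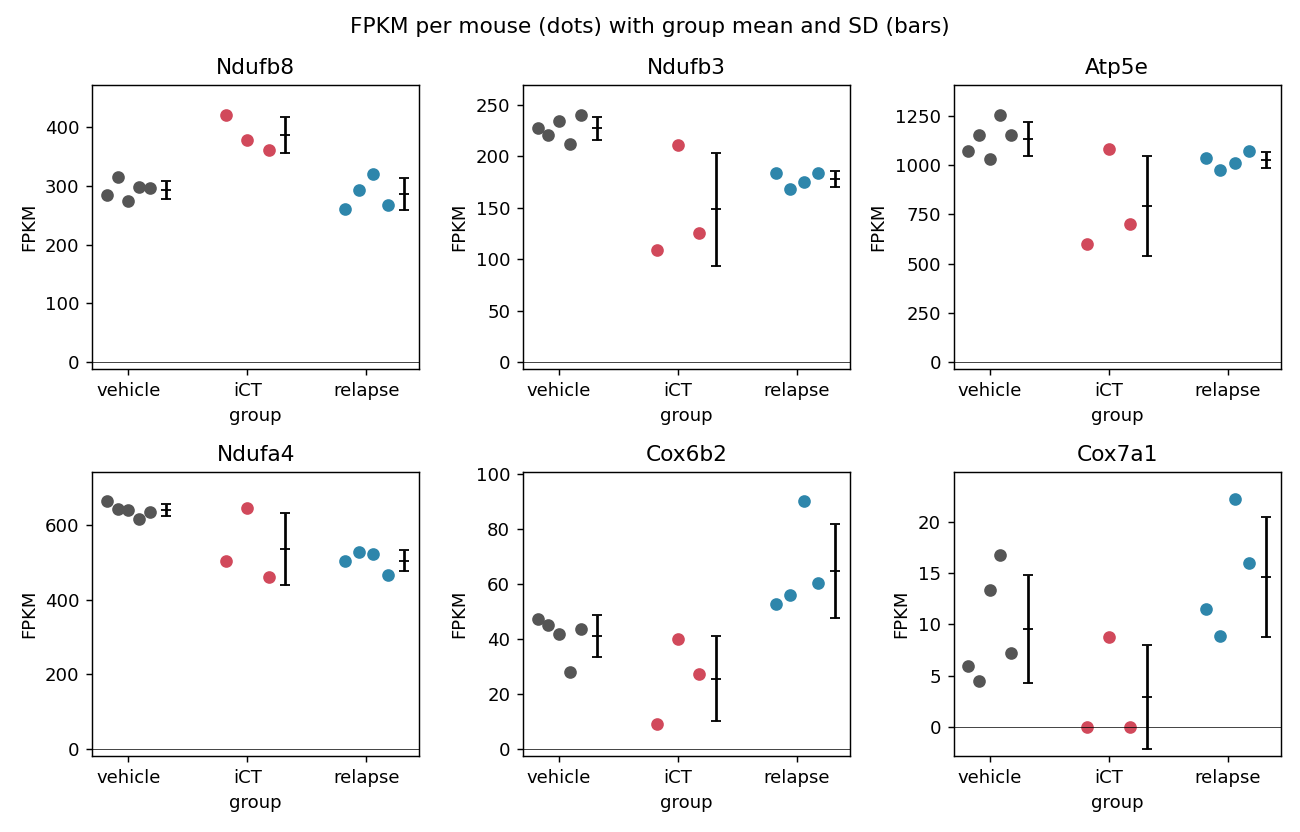
FPKM of 6 genes in each mouse (dots), by group, with the group mean and SD (bars). Ndufb8 was above the vehicle range in all 3 iCT mice; Ndufb3 and Atp5e were low in iCT mice 1 and 3, the left and right red dots, and Cox6b2 was above the vehicle range in all 4 relapse mice.

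The low values of mice 1 and 3 were shared by many members. In iCT mouse 1, 44 of 79 members were below the lowest vehicle value and 17 above the highest, where 45.2% of all genes tested were below and 30.8% above. In iCT mouse 3 the counts were 43 and 3 (29.7% and 26.8% of all genes). In iCT mouse 2 only 2 were below and 37 above (25.6% and 18.1%). The median log2 ratio of the members to the vehicle mean was -0.29 in mouse 1, 0.16 in mouse 2 and -0.26 in mouse 3, against -0.18, -0.05 and -0.02 for all genes tested.

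With iCT mouse 2 left out, 29 members passed limma's test against vehicle, 1 higher and 28 lower, where 24.8% of all genes tested passed, 8.9% higher and 15.9% lower. The 28 included 14 of complex I, 1 of complex II, 2 of complex III, 6 of 13 tested of complex IV, 4 of complex V and Cox7a2l. Without mouse 3, 4 passed and all were higher (3.03% of all genes were higher and 8.11% lower). They were 3 genes of complex I and Cox6a2, which reached the mean for members only through iCT mouse 1 and so is no independent support. Without mouse 1, 0 passed (6.26% of all genes), with 11 members and 2435 of all 10961 genes at an unadjusted p below 0.05. The fit on vehicle and iCT alone also called 0 members (3.09% of all genes), with 15 members and 2510 of all 11019 genes at an unadjusted p below 0.05. The count of members called in iCT therefore depended on which of the 3 mice were used.

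**Figure D2:**
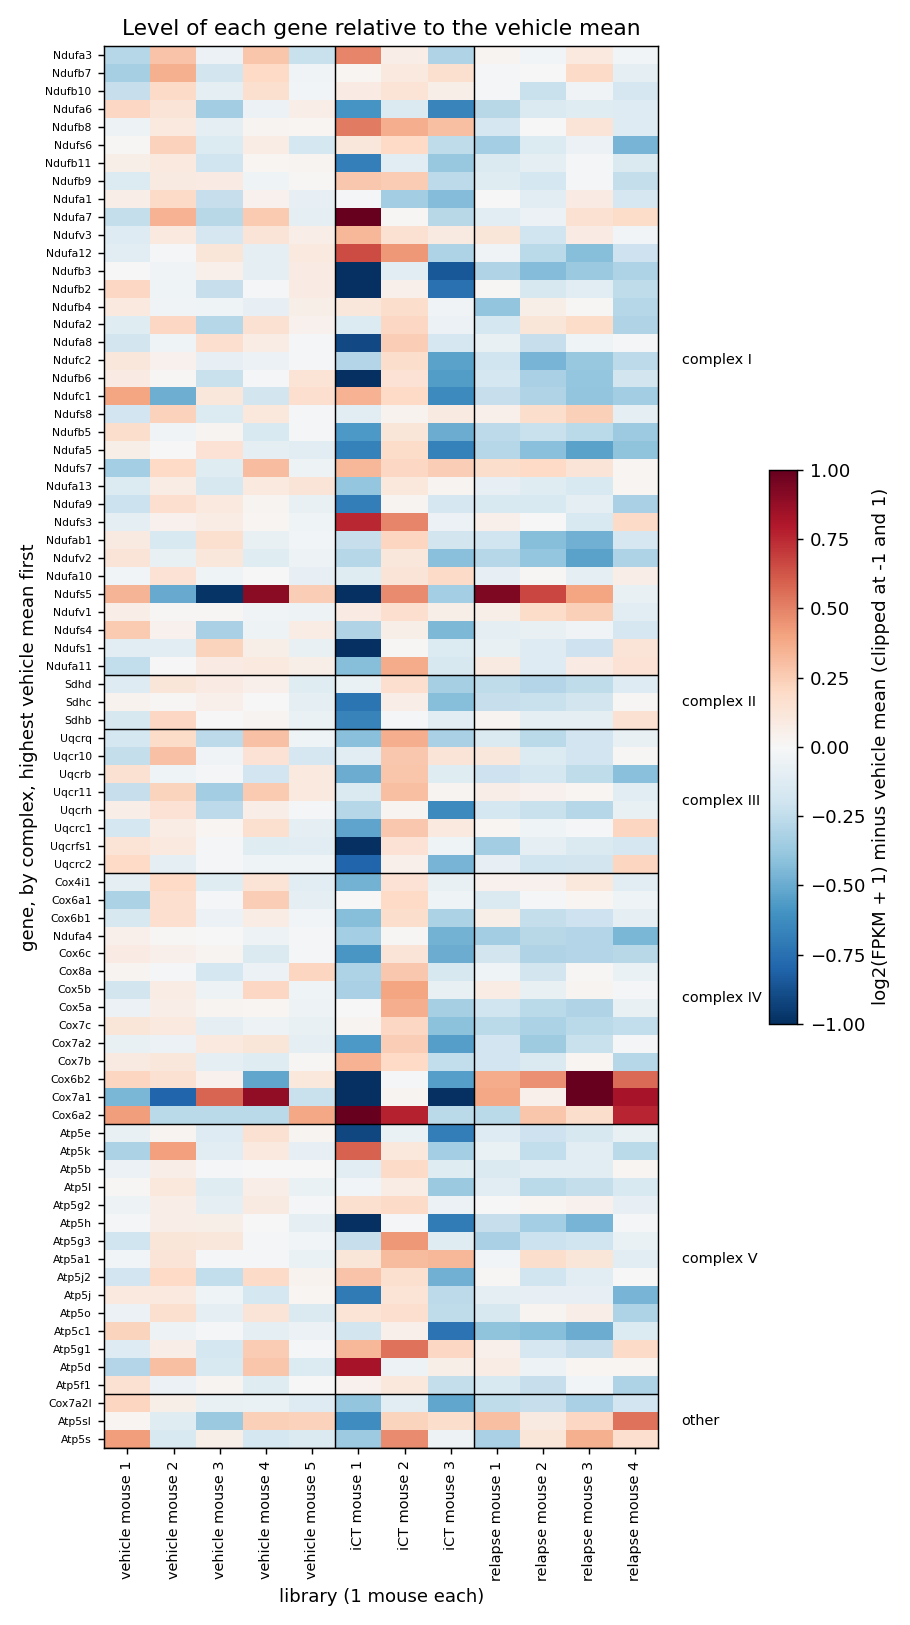
Each row is a gene, grouped by complex, and each column a library; colour gives log2(FPKM + 1) minus the vehicle mean, clipped at -1 and 1; the figure leaves out 1 complex I gene. The columns of iCT mice 1 and 3 hold many blue (lower) cells and that of iCT mouse 2 mostly pale red ones, and the 4 relapse columns are mostly pale blue.

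The other extremes in iCT did not pass the test. In complex II Sdhc, a membrane anchor, had a change of -0.36 (SE 0.14, limma adjusted p = 0.112), and Sdhd the least negative of the 3, with group means of 179 and 171 FPKM. In complex III the core protein Uqcrc2 had -0.40 (SE 0.16, limma adjusted p = 0.121) and the small subunit Uqcr10 0.09 (SE 0.13, limma adjusted p = 0.656). In complex V the stalk subunit Atp5h had 323, 650 and 405 FPKM in iCT against 648, 688, 685, 654 and 615 FPKM in vehicle, a change of -0.58 (SE 0.18, limma adjusted p = 0.0578). Atp5g1, 1 of 3 genes for the same c-ring protein, had 436, 506 and 399 FPKM against 317, 363, 307, 412 and 343 FPKM, a change of 0.36 (SE 0.13, limma adjusted p = 0.0881). Atp5h and Sdhc passed with iCT mouse 2 left out (limma adjusted p = 0.00169 and 0.00484, the lowest of ranges up to 0.216 and 0.416), as did Uqcrc2. Atp5g1 and Atp5h also passed with quantile normalization and with length and GC trends removed, and the change of Uqcrc2 was -0.19 with those trends removed.

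Markers of other cells moved with the iCT group. Of the 7 tissue macrophage markers 6 were tested and 5 rose, and their summed level was 119 to 245 FPKM in iCT against 60.8 to 101 in vehicle and 39.7 to 52.1 in relapse. Of the 6 osteoclast markers 4 were tested and all 4 rose, with sums of 141 to 638 against 10.8 to 26.5 and 14.2 to 76.9 FPKM. Calcr, Oscar and Dcstamp were listed at 0 in all vehicle mice. Of 7 erythroid markers the globin genes Hba-a1, Hbb-b1 and Hbb-b2 fell, and the list summed to 7.60 to 13.5 against 16.7 to 487 FPKM, with both alpha-globin genes counted at 2 loci each. Of the 8 mature neutrophil markers 5 had a positive change and 3 a negative one, and only Mmp9 passed, higher in iCT. Retnlg had means of 23.2 FPKM in iCT and 118 FPKM in vehicle. The list summed to 13132 to 17559 FPKM in iCT and 3631 to 13857 in vehicle, most of it from S100a8 and S100a9. Of the 7 leukaemia and myeloid markers none was at 0 in a group, their sums overlapped (2403 to 2878 and 2163 to 3348 FPKM), and the progenitor genes Kit and Cd34 fell. The part of these cells in the respiratory chain values was not tested, and in bulk libraries fewer cells of a type and less RNA per cell cannot be told apart.

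At 10 days after chemotherapy the levels were close together between mice and slightly below vehicle. No member passed limma's test on all 12 libraries, nor did any of the 11019 genes (0% called), and 10 members and 1604 genes had an unadjusted p below 0.05. Of the 79 members 59 had a negative change, against 40.6% of all genes tested, and the median change was -0.10 against 0.06. The members with a negative change numbered 70 with libraries scaled by the median of their ratios (50.7% of all genes) and 50 with quantile normalization (49.3%). Negative changes were the majority in each complex on the deposited values: 27 of 36 in complex I, 3 of 3 in complex II, 6 of 8 in complex III, 9 of 14 in complex IV and 13 of 15 in complex V. With quantile normalization complex IV had 7 of 14, with a median of 0.00. The range over all members was from -0.41 to 0.64.

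Summed over the 79 members, the level was 24020, 27146, 23836, 26298 and 24552 FPKM in vehicle, 22926, 28000 and 21305 FPKM in iCT and 23429, 22690, 23378 and 23067 FPKM in relapse. All 4 relapse sums were below all 5 vehicle sums, and the iCT sums lay on both sides. The relapse mean differed from the vehicle mean by -8.06%, and by complex by -7.16% for complex I, -9.47% for complex II, -8.08% for complex III, -7.71% for complex IV and -8.82% for complex V. For complexes IV and V alone the relapse and vehicle sums also did not overlap, and for complexes I to III they did. As a share of all summed FPKM the members held 2.73% to 2.96% in relapse and 2.87% to 3.08% in vehicle, which overlapped.

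**Figure D3:**
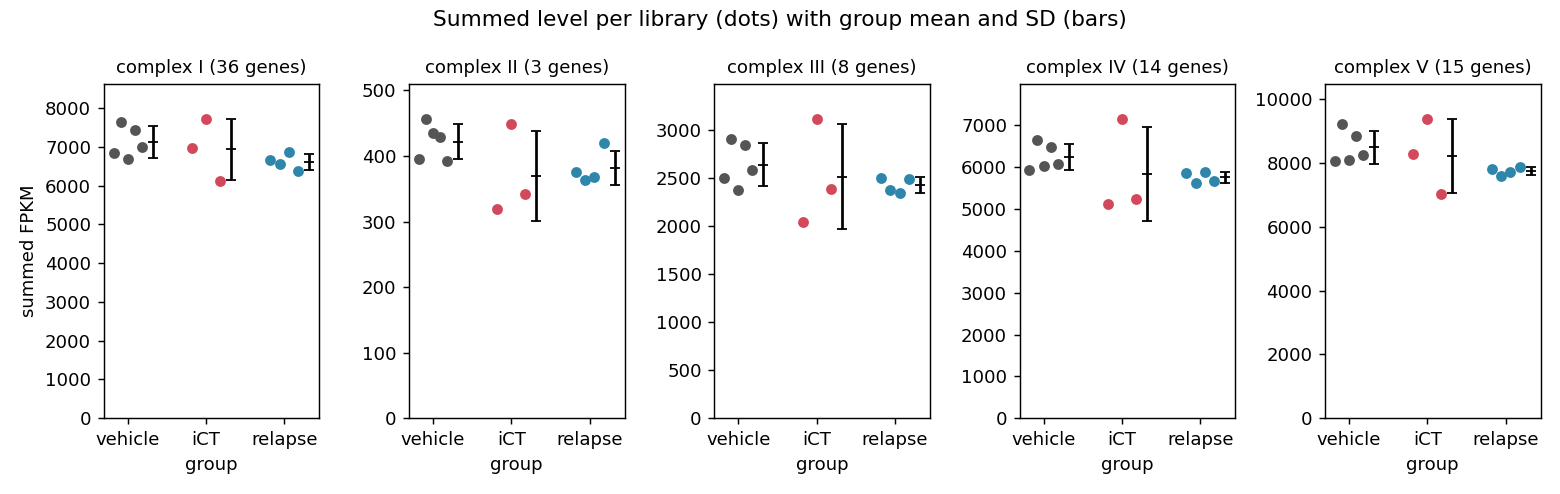
Summed FPKM of the subunits of each complex in each mouse (dots), with the group mean and SD (bars), on axes that start at 0. In complexes IV and V all relapse mice lie below all vehicle mice, and in complexes I to III the 2 groups overlap. The iCT mice spread to both sides of the vehicle range, except in complex II, where none lies above it.

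With limma fitted on vehicle and relapse alone, 8 members were lower and 0 higher, against 196 lower genes among all tested (1.78%) and 399 higher (3.62%). They were Ndufa4, Ndufa5, Ndufb3, Ndufc2, Ndufv2, Cox6c, Cox7c and Atp5c1. Of these, Ndufc2, Cox6c and Cox7c fell outside the rule for named genes and were chosen after their values were seen. Weighting the libraries in the fit of all 12 gave 7 lower and 1 higher member, where 2.95% and 5.86% of all genes passed. Of the 79 members 12 had all relapse values below all vehicle values (4.03% of all genes) and 1 had all above (9.72%).

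Ndufa5 (chr6:24518665-24527687, minus strand), an accessory subunit of the peripheral arm of complex I, had 139, 133, 147, 125 and 124 FPKM in the 5 vehicle mice, 83.1, 152 and 82.9 FPKM in the 3 iCT mice and 109, 99.6, 91.5 and 101 FPKM in the 4 relapse mice. All relapse values were below all vehicle values, and those of iCT reached from below the relapse range to above the vehicle range. The change was -0.41 (SE 0.16, limma adjusted p = 0.254) on all 12 libraries. With single libraries left out the adjusted p ran from 0.0680 to 0.499. Ndufv2, the core subunit that holds an iron-sulphur centre next to the NADH site, had 79.2, 73.7, 66.2 and 77.7 FPKM in relapse and 106, 91.8, 105, 88.9 and 93.3 FPKM in vehicle, a change of -0.38 (SE 0.11, limma adjusted p = 0.180).

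The complex IV subunit Ndufa4 (chr6:11900372-11907446, minus strand) had 665, 644, 642, 618 and 635 FPKM in the 5 vehicle mice, 506, 646 and 461 FPKM in the 3 iCT mice and 504, 528, 522 and 467 FPKM in the 4 relapse mice. Its highest relapse value was far below its lowest vehicle value, and the vehicle mice lay close together. The change was -0.34 (SE 0.09, limma adjusted p = 0.179) on all libraries. Cox7c, a small subunit of the same complex, had 294, 284, 294 and 299 FPKM in relapse and 386, 379.6, 333, 342 and 336 FPKM in vehicle, a change of -0.28 (SE 0.11, limma adjusted p = 0.273), and Cox6c had -0.26 (SE 0.12).

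Atp5c1 (chr2:10056030-10080510, minus strand), the gamma subunit that forms the central shaft of ATP synthase, had 279.6, 274, 261 and 335 FPKM in relapse and 430.2, 357, 364, 345 and 354 FPKM in vehicle, and the groups did not overlap. Its change was -0.37 (SE 0.14, limma adjusted p = 0.262). A processed pseudogene, Atp5c1-ps, may share its reads. Ndufb3 stood at 184, 168, 175 and 184 FPKM in relapse, below all vehicle values, with -0.35 (SE 0.15, limma adjusted p = 0.309), and Ndufc2 had -0.32 (SE 0.12).

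In complex II the relapse mean of Sdhb was 115 ± 9.61 FPKM (SD, n = 4) against 115 ± 11.3 FPKM in vehicle (n = 5), and Sdhd had a change of -0.23 (SE 0.10, limma adjusted p = 0.328). In complex III Uqcrb had -0.26 (SE 0.13, limma adjusted p = 0.399), and Uqcrc1 had 233 ± 19.5 FPKM in relapse and 226 ± 20.8 FPKM in vehicle. The alpha subunit of complex V, Atp5a1, had 486 ± 44.8 and 471 ± 25.7 FPKM, and the beta subunit Atp5b 805 ± 42.9 and 857 ± 26.8 FPKM. Uqcrc1, Atp5a1 and Sdhb overlapped between relapse and vehicle. Of the 7 complex I core genes 3 had a negative change in relapse, and of its 29 accessory genes 24.

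**Figure D4:**
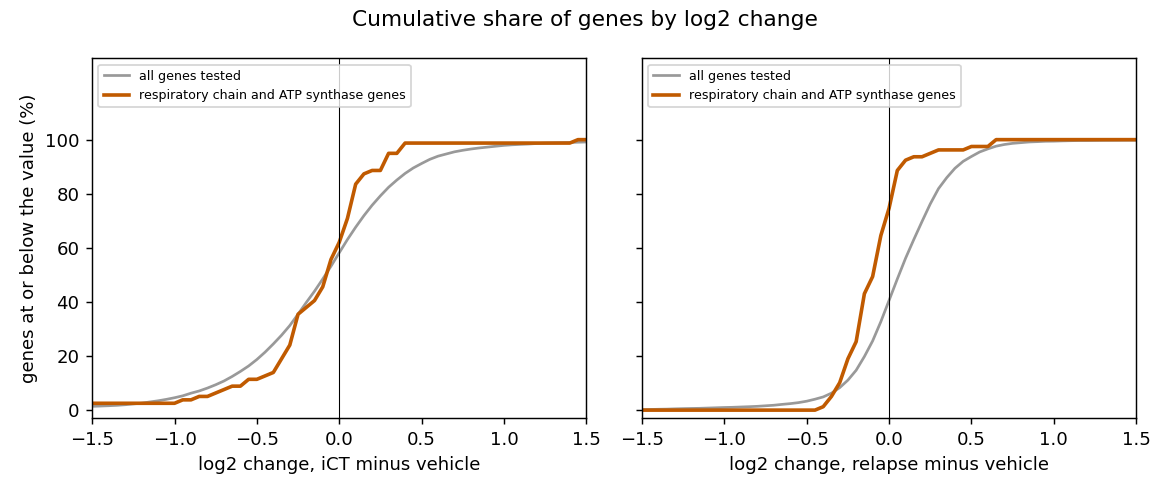
Cumulative share of genes, in percent, at or below each log2 change, for the respiratory chain and ATP synthase genes (orange) and all genes tested (grey), with iCT minus vehicle on the left and relapse minus vehicle on the right. On the right the orange curve lies left of the grey one over most of its course, with medians of -0.10 and 0.06, and on the left the curves meet near their medians.

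Base composition of the transcript moved with the relapse values. Across the 78 members with a transcript of known length and GC content, Spearman's rho between GC content and change was 0.55 in relapse minus vehicle, and across 10595 genes 0.35, as descriptions across genes of the same 12 libraries. The 39 members with a GC content up to the median of 51.1% had a median change of -0.19, and 36 were negative. The 39 above it had a median change of -0.02, and 23 were negative. Within the vehicle group the libraries already differed: rho between GC content and the deviation of the members from the overall mean was -0.64, 0.03, -0.36, 0.13 and -0.34 in vehicle mice 1 to 5, and 0.08 to 0.31 in relapse.

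After trends on length and GC content were removed from each library, 60 of 78 members still had a negative change in relapse, and the median was -0.11 against 0.01 for all genes. Of the members 0 passed limma's test (0.0189% of all genes did), with 7 members and 993 of all 10595 genes at an unadjusted p below 0.05. The fit of vehicle and relapse alone then called 0 members too (0.0566% of all genes), with 19 members and 1940 of all genes at an unadjusted p below 0.05. Cox7c, whose transcript had the lowest GC content of all members at 38.4%, changed sign to 0.06, and several of the genes described above moved toward 0: Ndufv2 from -0.38 to -0.17, Ndufa4 from -0.34 to -0.15, Ndufb3 from -0.35 to -0.17, Cox6c from -0.26 to -0.14 and Uqcrb from -0.26 to -0.03. Ndufa5, at -0.35, Atp5c1, at -0.35, and Ndufc2, at -0.24, moved less. In iCT the same step moved the median of the members from -0.07 to 0.07 and left 6 called, 3 in each direction (12.1% of all genes). The part of base composition in the group differences was not tested further.

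**Figure D5:**
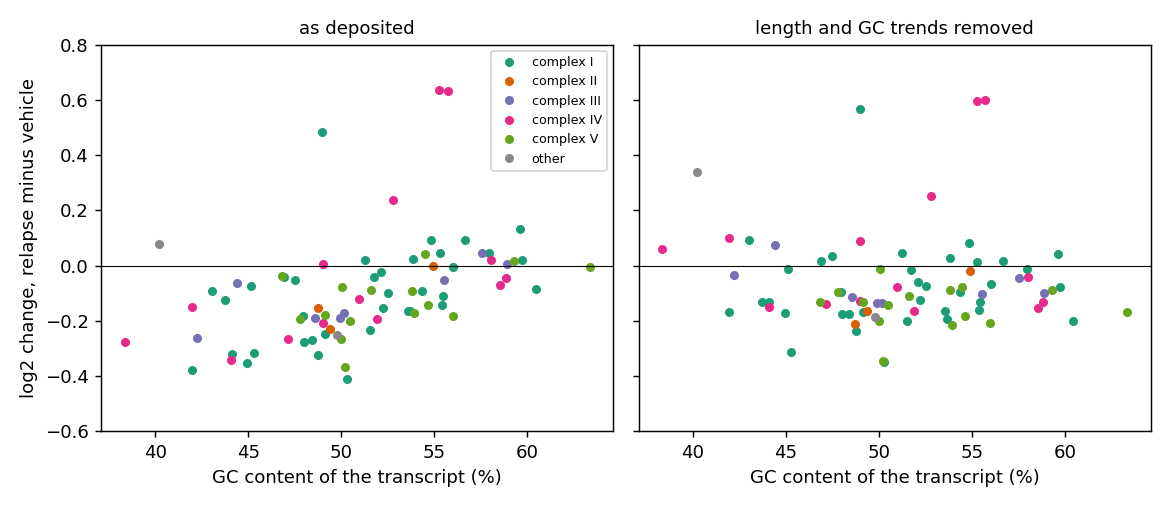
Log2 change in relapse minus vehicle of each gene (dots, coloured by complex) against the GC content of its transcript in percent, from the deposited values (left) and with length and GC trends removed (right). On the left the points climb with GC content (rho 0.55), and on the right they do not, with most still below 0 (60 of 78).

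Between day 3 and day 10 the comparison asks which genes differed between surviving and regrown cells. Of 79 members 3 passed: Cox7a1 and Cox6b2 were higher in relapse and Ndufb8 lower, where 9.72% of all genes tested passed, 729 higher (6.62%) and 342 lower (3.1%). That split was 494 and 516 with median-of-ratios scaling, 431 and 420 with quantile normalization, and 483 and 637 with length and GC trends removed. The median change was -0.05 for the members (0.09 without iCT mouse 2) and 0.16 for all genes. Relapse shares its libraries with the comparison against vehicle, and iCT with the other, so these are not independent. Ndufb8 had a change of -0.44 (SE 0.09, limma adjusted p = 0.0156) and passed in all 12 fits that left out 1 library, but in only 7 of 13 other settings (limma adjusted p up to 0.107). The call was lost with quantile normalization (adjusted p = 0.0591), with library weights and in each fit of iCT and relapse alone. The count of members called was 14 without iCT mouse 2 (14.4% of all genes), 10 without iCT mouse 3 (17% of all genes) and 1 without relapse mouse 3 (5.32% of all genes) or mouse 4 (4.89%). In the fit of iCT and relapse alone it was 0 (2.14% of all genes), with 4 members and 2341 of all 11019 genes at an unadjusted p below 0.05.

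Cox6b2 (chr7:4751791-4753094, minus strand) encodes the testis form of subunit 6B of complex IV, and Cox6b1 the common form. Cox6b2 had 47.2, 45.2, 41.6, 27.9 and 43.7 FPKM in the 5 vehicle mice, 9.18, 39.9 and 27.3 FPKM in the 3 iCT mice and 52.5, 55.8, 89.97 and 60.5 FPKM in the 4 relapse mice. All relapse values were above all vehicle and iCT values, and iCT mouse 1 was lowest. The change from iCT was 1.50 (SE 0.37, limma adjusted p = 0.0271). It missed the threshold without relapse mouse 2, 3 or 4 (limma adjusted p over single libraries left out from 0.00629 to 0.0719) and moved to 0.92 without iCT mouse 1. Of 13 other settings 7 kept the call. Against vehicle the change was 0.63 (SE 0.33, limma adjusted p = 0.410), and it was the 1 member with all relapse values above all vehicle values. Of the summed Cox6b1 and Cox6b2 level, Cox6b2 held 5.55% ± 1.22 in vehicle, 3.70% ± 1.71 in iCT and 9.12% ± 2.61 in relapse (SD, n = 5, 3 and 4).

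Cox7a1 (chr7:30184170-30186030, plus strand), the heart and muscle form of subunit 7A, had 5.96, 4.52, 13.3, 16.7 and 7.19 FPKM in the 5 vehicle mice, 0, 8.76 and 0 FPKM in the 3 iCT mice and 11.5, 8.89, 22.2 and 15.96 FPKM in the 4 relapse mice. In 2 of the 3 iCT mice it was listed at 0, with no failed estimate flagged. Its relapse values were all above the highest iCT value, the lowest of them only just. The change from iCT was 2.80 (SE 0.69, limma adjusted p = 0.0266). It missed the threshold without iCT mouse 1 or 3 or relapse mouse 1, 3 or 4 (adjusted p from 0.00114 to 0.0838), and 8 of 13 other settings kept the call. Its common counterpart Cox7a2 had means of 313, 265 and 274 FPKM in vehicle, iCT and relapse, and Cox7a1 held 2.87% ± 1.34, 0.768% ± 1.33 and 5.02% ± 1.86 of the summed level. Cox7a2l had 275, 247, 225, 227 and 217 FPKM in vehicle and 199, 202, 189 and 208 FPKM in relapse, without overlap.

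Cox6a2, the heart and muscle form of subunit 6A, was at 15.8, 1.05 and 0 FPKM in the 3 iCT mice and at or below 1.04 FPKM elsewhere. Its change of 1.43 (SE 0.67, limma adjusted p = 0.172) was 0.26 with library weights and 2.28 without iCT mouse 3, where it passed (limma adjusted p = 0.0386, up to 0.251 with other libraries left out). Without iCT mouse 1 it missed the filter for testing. Cox6a2 also reached the mean of 1 FPKM for members only through that mouse, so its test in iCT is no independent support. The gene overlaps Itgad on the opposite strand. Cox6a1 held 99.3% or more of the summed level in each group mean. Cox4i1 likewise held 99.9% or more of its sum with Cox4i2, and Cox8a, at 575 ± 57.9 FPKM in vehicle, was the 1 form of subunit 8 above 0. The 3 genes for the c ring held 21.8%, 44.8% and 33.4% of their sum in vehicle (Atp5g1, Atp5g2 and Atp5g3), 25.3%, 43.6% and 31.1% in iCT, and 22.4%, 47.0% and 30.6% in relapse. The Atp5g1 share was above all vehicle values in each iCT mouse.

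The genes around the complexes were described by lists. Of 13 complex I assembly factors, 1 rose and 1 fell in iCT minus vehicle: Ecsit had 22.2, 24.3, 26.4, 22.9 and 22.04 FPKM in vehicle and 69.2, 34.4 and 29.8 FPKM in iCT, a change of 0.79 (SE 0.21, limma adjusted p = 0.0370), and Timmdc1 had 13.3, 13.2, 13.9, 12.1 and 12.4 and 8.98, 9.70 and 5.08 FPKM, a change of -0.69 (SE 0.19, limma adjusted p = 0.0384). Both sets of iCT values lay outside the vehicle range, and the change of Ecsit was 0.43 without iCT mouse 1 and that of Timmdc1 -0.43 without iCT mouse 3. Of 30 assembly factors of complexes II to V, only Surf1, needed for complex IV, passed, and it fell by 0.55 on the log2 scale (SE 0.15, limma adjusted p = 0.0421). Among all genes tested 9.62% passed in iCT minus vehicle, 3.31% higher and 6.31% lower. With single libraries left out, Ecsit, Timmdc1 and Surf1 each passed in 3 of 12 fits (limma adjusted p from 0.00543 to 0.126). Of 13 other settings 7 kept the call for Ecsit, 5 for Timmdc1 and 5 for Surf1. In relapse minus vehicle 0 of the 13 and 0 of the 30 passed, with 3 and 2 at an unadjusted p below 0.05. Of all 11019 genes tested 0 passed there too, with 1604 at that level. In relapse minus iCT, where 9.72% of all genes passed, Ecsit had -0.78 (SE 0.22, limma adjusted p = 0.0457).

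Of 9 subunits and carriers that the symbol rule does not reach, 0 passed in iCT minus vehicle or relapse minus vehicle with limma on all libraries, with 3 at an unadjusted p below 0.05 in each. Of all 11019 genes tested 1060 and 0 passed in these comparisons, with 3282 and 1604 at that level. Cycs, cytochrome c, had 108, 74.7, 101, 80.2 and 101 FPKM in the 5 vehicle mice, 49.6, 90.1 and 56.1 FPKM in the 3 iCT mice and 62.00, 62.5, 51.9 and 66.2 FPKM in the 4 relapse mice. All relapse values were below all vehicle values, and the change was -0.60 (SE 0.17, limma adjusted p = 0.180). Sdha, the flavin subunit of complex II, had 119, 118 and 133 FPKM in iCT and 104, 114, 101, 105 and 107 FPKM in vehicle, and Cyc1, cytochrome c1 of complex III, 145 ± 40.1 and 163 ± 25.97 FPKM. The ADP/ATP carriers Slc25a4 and Slc25a5 had relapse means of 112 and 866 FPKM against 103 and 943 FPKM in vehicle, and Atpif1, which blocks reverse rotation of ATP synthase, 147 against 142 FPKM. Ucp2, an inner membrane carrier, had 1171, 1210, 1133 and 1235 FPKM in relapse and 836, 753 and 1034 FPKM in iCT, a change of 0.45 (SE 0.13, limma adjusted p = 0.0494), which passed in 2 of 12 fits with 1 library left out (adjusted p up to 0.113) and in 1 of 13 other settings, and was 0.23 with length and GC trends removed.

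None of the 8 other dehydrogenases that feed ubiquinone passed limma's test in any comparison, with 2, 1 and 1 at an unadjusted p below 0.05 in iCT minus vehicle, relapse minus vehicle and relapse minus iCT. Among all 11019 genes tested, 3282, 1604 and 3194 were at that level. Dhodh, the pyrimidine enzyme named above, had 14.7, 18.9, 19.7, 17.1 and 14.3 FPKM in the 5 vehicle mice, 18.2, 18.5 and 18.6 FPKM in the 3 iCT mice and 17.01, 16.96, 16.7 and 14.6 FPKM in the 4 relapse mice. Its vehicle values overlapped those of both other groups, and all iCT values were above all relapse values. The 10 genes of ubiquinone synthesis also gave 0, with 2, 0 and 1 at that level. Of 12 regulators of mitochondrial biogenesis 10 were tested and 0 passed, with 2, 2 and 0 at an unadjusted p below 0.05. The coactivators Ppargc1a and Ppargc1b were at or below 0.0836 FPKM in every library. Nrf1 had 14.2 ± 2.06, 22.9 ± 7.16 and 18.5 ± 1.17 FPKM in vehicle, iCT and relapse, and Gabpa 13.2 ± 1.58, 13.7 ± 1.67 and 13.7 ± 1.56 FPKM (SD, n = 5, 3 and 4). Means of Tfam, the mitochondrial transcription factor, were 11.02, 10.4 and 10.2 FPKM, those of Esrra 11.6, 13.6 and 13.96 FPKM, and those of Pprc1 7.28, 8.33 and 8.94 FPKM.

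Several members share their locus or their reads with other genes. Ndufa2, Ndufa11, Ndufa13, Ndufb5, Ndufb6, Ndufb11, Uqcrb, Uqcrc2, Cox4i1, Cox6a2, Atp5a1, Atp5f1 and Atp5j overlap a gene on the opposite strand. It is Gabpa for Atp5j and Itgad for Cox6a2. Ndufa13, Ndufb2, Ndufb8, Ndufb9 and Cox4i1 overlap a gene on the same strand. Uqcrh, Ndufab1, Atp5k, Atp5l and Atp5c1 have named processed pseudogenes. Whether counting used strand, and how reads with several matches were treated, was not given in the labels or headers, so values of these genes are less certain.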

How the data were processed

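RNA-seq libraries of sorted GFP+ leukaemia cells from 12 mice were analysed from the 12 gene tables deposited, 24883 entries each. The deposited values are FPKM with confidence bounds per the file headers. Per the submitters' processing notes the authors used STAR, Cufflinks and mm9, with no versions named. The coordinates of 78 members found in the annotation overlapped their GRCm38 gene models, so GRCm38 is given as the build. Tables were joined on symbol and locus. The 2 entries with a failed estimate were left out, no 2 libraries held identical values, and 0 entries lay on the mitochondrial chromosome. Total fragments per library are not given, so precision was read from the confidence intervals.

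Groups came from the sample titles. log2(FPKM + 1) of 11019 genes (at least 1 FPKM in at least 3 libraries) was fitted with limma 3.58.1 in R 4.3.3, with group as the only term, a variance trend and all 12 libraries. Adjusted p-values (Benjamini-Hochberg) below 0.05 passed. The procedure was tested on simulated data. Alternatives were other pseudocounts, filters, scalings, weights, length and GC trends removed, a replicate block, the groups compared alone, and each library left out. The last 2 combinations, the groups compared alone with length and GC trends removed or without iCT mouse 1, were added after seeing the data. Sums, shares and motif counts carry no test. The members and lists were chosen with earlier results of these data known. Named genes were the members called, the extremes of level and of change per complex, alternative forms, core subunits, and of each list the genes called plus set ones; some values under this rule are not reported here.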

Additional observations from a re-analysis of the deposited data

Results flagged for a closer look

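The members and genes named were searched, in each group of 4 or 5 mice, for 1 mouse that stood apart from the rest of its group. Of 126 groups of values 5 met the criterion, and chance alone meets it in about 1 of 20 groups. Cox6b2 was at 27.9 FPKM in vehicle mouse 4, below the 41.6 to 47.2 FPKM of the other vehicle mice. Uqcrc2 was at 140.2 FPKM in vehicle mouse 1, above the 114 to 120.4 FPKM of the others, and Atp5c1 in the same mouse at 430.2 FPKM, above 345 to 364 FPKM. Atp5a1 was at 515 FPKM in vehicle mouse 2, above 448 to 467 FPKM. Dhodh was at 14.6 FPKM in relapse mouse 4, below 16.7 to 17.0 FPKM.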

How the results depend on the processing

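Call counts depended on the settings. So did the sign of the median change of the members in iCT minus vehicle and in relapse minus iCT. For iCT minus vehicle the 3 members called became 6 after quantile normalization and 6 with length and GC trends removed. They became 0 with a replicate block, in the fit of the groups compared alone and in that fit without iCT mouse 1, and ran from 0 to 29 with single libraries left out (1 without vehicle mouse 5). For relapse minus vehicle the 0 called became 8 with library weights and 8 in the fit of the groups compared alone, and were 0 with any 1 library left out. For relapse minus iCT the 3 called became 1 with no filter, 1 with library weights, 6 with length and GC trends removed, and 0 with the replicate block, in the fit of the groups compared alone, and in that fit with the trends removed or without iCT mouse 1. With single libraries left out they ran from 1 to 14. The mouse numbers share only a number: same-numbered mice of different groups deviated with correlations from -0.091 to 0.099, and not every mouse was most like its own number. With that block Ndufb8 had an adjusted p of 0.135 in iCT minus vehicle and did not pass in relapse minus iCT.

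The median change in iCT was 0.075 with length and GC trends removed, in both fits, and -0.212 to -0.0275 with single libraries left out. In relapse minus iCT it was -0.18 with the trends removed, in both fits, and -0.105 to 0.0923 with single libraries left out. In that comparison the median of all genes moved from 0.16 to 0.02 with quantile normalization, 0.06 with median-of-ratios scaling and 0.00 with the trends removed. In relapse minus vehicle the median of the members ran from -0.13 to -0.08 with single libraries left out. Sums moved by more than 1 SD of the group when complexes were set by symbol alone, to 7762 (vehicle) and 7117 FPKM (relapse) for complex I and 5838 and 5454 FPKM for complex IV. With median-of-ratios scaling the relapse sums were 6289, 2302, 5477 and 7364 FPKM for complexes I, III, IV and V. Ndufs5 in iCT reversed to 0.0696 without iCT mouse 1, in both fits, from a range of -3.11 to 0.0696, and Cox7c in relapse to 0.061 with the trends removed, in both fits. The cause of these differences was not tested. Fragment depth limits iCT mouse 1 most, with a median of 44.6 fragments per member.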
